A study of Mus musculus with 6 samples.

Results

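The transcripts described here are 9 cathepsins (Ctsa, Ctsb, Ctsc, Ctsd, Ctsh, Ctsk, Ctsl, Ctss and Ctsz) and legumain (Lgmn), taken by gene symbol from the 28162 genes of the deposited table, where all 10 were found. The animals were SOD1G93A mice, a widely used model of amyotrophic lateral sclerosis that carries a transgene for a mutant human superoxide dismutase 1. One group had received AAV-NDNF (3 libraries) and the other AAV-GFP as the control (3 libraries), each an adeno-associated virus given intrathecally on postnatal day 74, and ventral lumbar spinal cord was collected on day 104. Both groups therefore carry the SOD1G93A transgene and a virus, and the sources used here give neither the promoter nor the serotype of the virus. NDNF is neuron-derived neurotrophic factor, a secreted glycoprotein, and GFP is green fluorescent protein. The labels call the libraries of a group biological replicates.

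Cathepsins and legumain are proteases that work mainly in the acidic lumen of endosomes and lysosomes, where they break down proteins taken up from outside the cell or delivered by autophagy. Most are cysteine proteases of the papain family, whereas Ctsd is an aspartic protease, Ctsa a serine carboxypeptidase, and Lgmn a cysteine protease that cuts after asparagine and helps mature other cathepsins. They are made as inactive precursors, and the cysteine proteases among them are held in check by cystatins. In the central nervous system several of them are most abundant in microglia, the resident phagocytes, while others are made by neurons and all glia. From this background knowledge Ctss, Ctsc, Ctsh, Ctsz and Lgmn were put in a microglia-enriched class, Ctsa, Ctsb, Ctsd and Ctsl in a broadly expressed class, and Ctsk, known from osteoclasts and connective tissue, in neither.

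Values below are normalized read counts, that is, read counts divided by 1 size factor per library. Log2 fold changes were taken as AAV-NDNF minus AAV-GFP after adding 1 to each value, ± is the SD over n = 3 libraries, and SE is a standard error. The libraries held between 15335789 and 20060987 reads assigned to genes. Ndnf, which checks the group labels, stood at 5286, 7077 and 674 in AAV-NDNF replicates 1 to 3, against 171, 128 and 158 in AAV-GFP replicates 1 to 3. AAV-NDNF replicate 3 thus had by far the least Ndnf of its group, although more than any control. The 6 motor neuron markers of a list of marker genes were all measured, their sum lying between 6347 and 7329 in AAV-NDNF libraries and between 6108 and 7419 in AAV-GFP libraries. AAV-GFP replicate 2 stood apart in its tissue markers. Those of dorsal horn neurons summed to 1877, 2421 and 3456 in AAV-NDNF replicates 1 to 3, against 3311, 1230.4 and 3274 in AAV-GFP replicates 1 to 3. Oligodendrocyte markers summed to 575969, 536678 and 580226 in AAV-NDNF replicates 1 to 3, against 520749, 717889 and 518896 in AAV-GFP replicates 1 to 3. That control thus had the least dorsal horn and the most oligodendrocyte signal of the 6 libraries.

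The proteases differed widely in abundance, which is compared here per kb of annotated exon. In AAV-NDNF libraries Ctsb was highest at 3112 ± 234 normalized reads per kb, followed by Ctss at 2879 ± 542 and Ctsd at 2849 ± 641, and these neighbours in the order did not differ beyond their spread. In AAV-GFP libraries the order of the leading genes was Ctss at 4294 ± 595, Ctsd at 4225 ± 89.9 and Ctsb at 3628 ± 177 per kb, with Ctss and Ctsd again within their spread. In both groups Lgmn (2025 ± 215 in AAV-NDNF, 2033 ± 6.35 in AAV-GFP), Ctsz (1221 ± 270.2 and 1727 ± 102), Ctsa (741 ± 50.1 and 768 ± 23.4), Ctsl (377 ± 45.3 and 501 ± 60.7) and Ctsh (117 ± 21.4 and 169 ± 17.4) came next. Ctsc (74.5 ± 0.82 per kb in AAV-NDNF, 99.1 ± 15.6 in AAV-GFP) and Ctsk (78.1 ± 14.4 and 83.1 ± 23.9) were lowest, and their order, which differed between the groups, was within their spread. With the length of the longest transcript in place of all exons, the AAV-GFP order of the leading genes became Ctsd, Ctsb and Ctss, so the order among these highest genes rests on the length used.

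Promoter sequences are shown for 3 members, because Ctsd and Ctsa hold the same E-box motif but differed in the comparison below, and Ctss lacks it. They run from 250 bases before to 50 bases after a gene start in RefSeq (build GRCm38.p6, which is mm10), which can differ from the gene starts given below, on the strand of the gene, and capitals mark motif matches. For Ctsa the window shown is the downstream one of its 2 promoters in that table. The motifs searched on both strands were the E-box CACGTG, which is bound by TFEB, a regulator of lysosomal genes, the same E-box with a flanking T (TCACGTG, which overlaps it), and GAGGAAG, a core of sites for the myeloid factor PU.1, whose reverse complement reads CTTCCTC.
Ctsd, chr7:142387778-142388077, minus strand: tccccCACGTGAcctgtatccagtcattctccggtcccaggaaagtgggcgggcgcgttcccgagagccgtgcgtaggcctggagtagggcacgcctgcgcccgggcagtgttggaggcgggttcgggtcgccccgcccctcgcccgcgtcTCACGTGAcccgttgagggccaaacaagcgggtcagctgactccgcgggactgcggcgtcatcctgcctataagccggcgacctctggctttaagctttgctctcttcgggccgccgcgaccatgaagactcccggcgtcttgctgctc
Ctsa, chr2:164833523-164833822, plus strand: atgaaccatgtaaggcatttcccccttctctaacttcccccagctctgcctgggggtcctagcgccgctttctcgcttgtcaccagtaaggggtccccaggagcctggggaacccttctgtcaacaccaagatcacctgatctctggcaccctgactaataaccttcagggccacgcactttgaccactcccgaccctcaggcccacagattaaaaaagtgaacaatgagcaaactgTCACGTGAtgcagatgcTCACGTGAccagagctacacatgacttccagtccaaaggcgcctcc
Ctss, chr3:95526536-95526835, plus strand: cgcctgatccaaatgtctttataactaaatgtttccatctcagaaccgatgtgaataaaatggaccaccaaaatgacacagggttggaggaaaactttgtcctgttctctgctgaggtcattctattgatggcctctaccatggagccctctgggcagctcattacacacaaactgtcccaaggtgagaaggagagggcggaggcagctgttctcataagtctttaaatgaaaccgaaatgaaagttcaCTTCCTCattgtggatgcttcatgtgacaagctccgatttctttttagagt
The table held 10 promoters of 8 members, Ctsb and Ctsh not being among them. CACGTG was found in 4 of these 10 promoters (1 each of Ctsa, Ctsd, Ctsl and Lgmn), against 7.15% of all 32851 promoters of this length in the table, and TCACGTG in 3 (Ctsa, Ctsd and Lgmn), against 3.77%. Ctsa and Lgmn have 2 promoters each, and only the downstream one holds the E-box. In Ctsd the E-boxes begin at positions −245 and −98 from the gene start, and in the downstream promoter of Ctsa at −12 and 6 from the start of that promoter. GAGGAAG was found in 3 of the 10 (Ctsc, Ctsk and Ctss), against 13.6% of all promoters, and in Ctss its match begins at position −1 on the opposite strand. These matches are descriptions of letters in a window, and binding was not measured.

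The main comparison asked which transcripts of the ventral cord differed on postnatal day 104 after delivery of NDNF on day 74. Of the 10 proteases, 7 had every AAV-NDNF library below every AAV-GFP library (Ctsb, Ctsc, Ctsd, Ctsh, Ctsl, Ctss and Ctsz), against 5.5% of all 17480 genes tested. Mean levels after AAV-NDNF were 0.671 (Ctss), 0.674 (Ctsd), 0.693 (Ctsh), 0.707 (Ctsz), 0.752 (Ctsc), 0.752 (Ctsl) and 0.858 (Ctsb) times those after AAV-GFP. For 0 of the 10 did every AAV-NDNF library lie above every AAV-GFP library, against 4.26% of all genes. Ctsa, Ctsk and Lgmn overlapped between the groups. All 10 passed the filter on low values, and all 10 log2 fold changes were below 0, from −0.59 to −0.01 with a median of −0.40, where the median over all tested genes was 0.00.

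No single protease passed the test over all genes. In limma with Benjamini-Hochberg adjustment none of the 17480 genes was called (0.0%), and the smallest adjusted p of a protease was 0.53. Ndnf itself was not called either: its log2 fold change was 4.27 (SE 0.85, limma adjusted p = 0.53). In the authors' deposited DESeq2 output its adjusted p is 8.92e-05. A limma adjusted p of this size therefore does not show that a gene was unchanged. At an unadjusted p under 0.05 limma placed 6 of the 10 lower after AAV-NDNF, against 3.53% of all genes, and 0 higher, against 1.15%. The edgeR quasi-likelihood test on recovered reads also called 0.0% of genes after adjustment, with 6 of the 10 proteases lower at an unadjusted p under 0.05, against 3.56% of genes. In the authors' deposited table, from DESeq2, none of the 10 has an adjusted p under 0.05, against 0.246% of genes called lower there, and Ctsd is nearest at 0.0602 with Ctss at 0.0847. At an unadjusted p under 0.05 the authors' deposited table places 7 of the 10 lower, against 2.2% of its genes. That share is over all 28162 genes, including those too low to be tested here. On the 17480 tested genes, DESeq2 on recovered reads also placed 7 of the 10 lower at that threshold, against 3.4%. DESeq2 run on the recovered reads called 0 of the 10 after adjustment, against 0.297% of genes called lower. The tool mattered: limma-voom with sample quality weights, which gives libraries that depart from their group less weight, called 6 of the 10 lower (Ctsc, Ctsd, Ctsh, Ctsl, Ctss and Ctsz), against 0.904% of all genes. The weights were 0.590, 2.45 and 0.407 for AAV-NDNF replicates 1 to 3, and 2.46, 0.442 and 1.56 for AAV-GFP replicates 1 to 3. These calls therefore rest mostly on AAV-NDNF replicate 2 against AAV-GFP replicates 1 and 3.

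**Figure D1:**
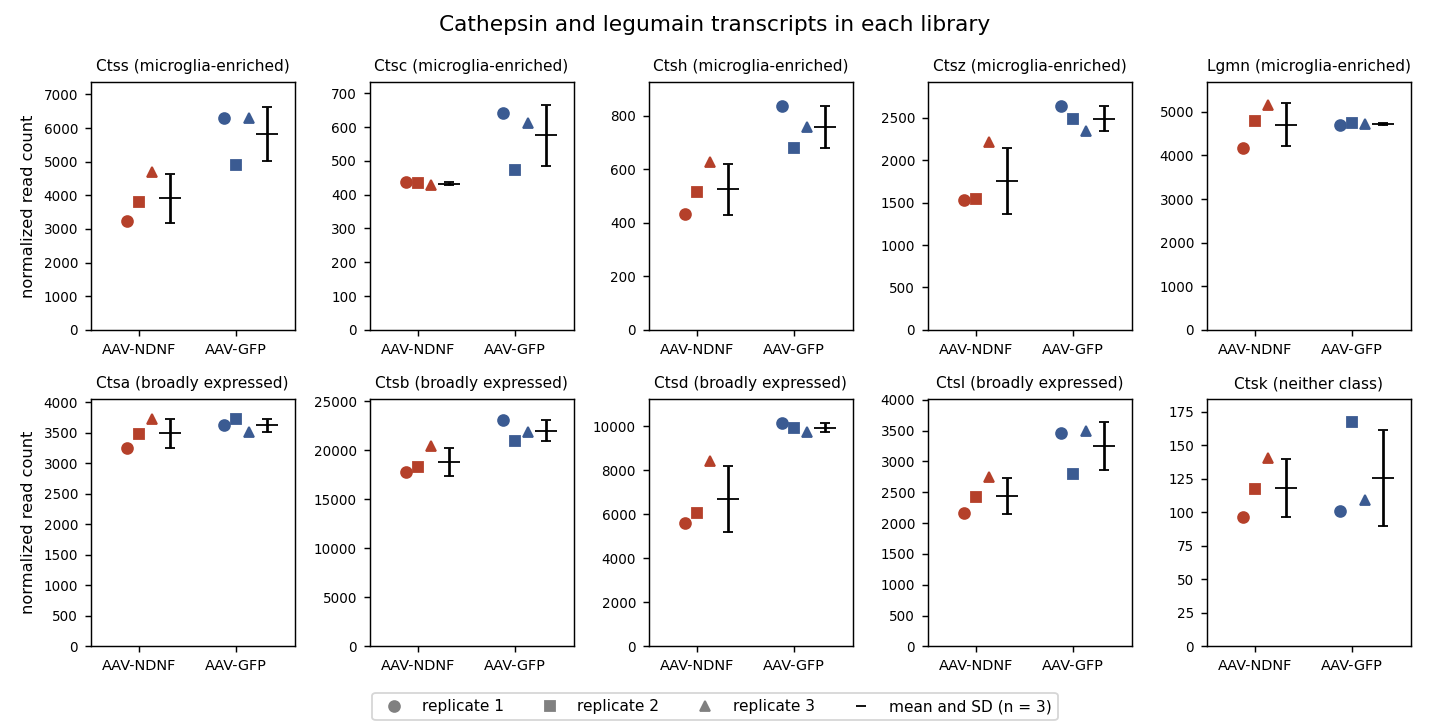
Normalized read count of each protease (vertical axes, starting at 0) in the 3 AAV-NDNF libraries (red) and the 3 AAV-GFP libraries (blue), with marker shapes for replicates 1 to 3 and the mean and SD beside the points. Every AAV-NDNF library lies below every AAV-GFP library for 7 of the 10 genes, and the groups overlap for Lgmn, Ctsa and Ctsk.

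Among the microglia-enriched proteases Ctss had the highest level per kb of exon in both groups. Ctss (cathepsin S, chromosome 3, 95526786 to 95556403, plus strand, mm10) is an endopeptidase that stays active at neutral pH and trims the invariant chain in antigen-presenting cells. It was 3238, 3796 and 4696 in AAV-NDNF replicates 1 to 3, against 6312, 4899 and 6284 in AAV-GFP replicates 1 to 3. The highest AAV-NDNF library (replicate 3) lay just below the lowest control (replicate 2), with a wide gap for the other libraries. The means were 3910.2 ± 736 and 5831 ± 808, a log2 fold change of −0.58 (SE 0.15, limma adjusted p = 0.53). The value was −0.72 without AAV-NDNF replicate 3 (limma adjusted p = 0.0787) and −0.70 without AAV-GFP replicate 2 (limma adjusted p = 0.201), against −0.46 without AAV-NDNF replicate 1.

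Ctsz (cathepsin X, chromosome 2, 174427493 to 174439039, minus strand) is a carboxypeptidase that removes single residues from the end of a protein. It was 1528, 1542 and 2209 after AAV-NDNF, against 2639, 2482 and 2346 after AAV-GFP, so that replicate 3 of AAV-NDNF again came closest to the controls. The log2 fold change was −0.52 (SE 0.15, limma adjusted p = 0.60), and −0.70 without AAV-NDNF replicate 3, where it passed (limma adjusted p = 0.0414). Without AAV-NDNF replicate 1 it was −0.43. Ctsh (cathepsin H, chromosome 9, 90054152 to 90076089, plus strand), an aminopeptidase, was 435, 515 and 627 after AAV-NDNF, against 836, 680.2 and 758 after AAV-GFP. Its log2 fold change was −0.54 (SE 0.15, limma adjusted p = 0.60), close to those of Ctss and Ctsz although Ctsh was the less abundant gene.

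Ctsc (cathepsin C, chromosome 7, 88278085 to 88310888, plus strand) is a dipeptidyl peptidase that activates granule serine proteases of immune cells. It was 437, 434 and 427 in AAV-NDNF replicates 1 to 3, against 641, 472 and 613 in AAV-GFP replicates 1 to 3. The AAV-NDNF libraries were nearly level, with an SD of 1.1% of the mean, less than the 4.5% that counting alone gives on average over the libraries, while AAV-GFP replicate 2 stood well below the other controls. The log2 fold change was −0.40 (SE 0.14, limma adjusted p = 0.915), −0.53 without AAV-GFP replicate 2 and −0.31 without AAV-GFP replicate 1. Ctsc was the only one of the 10 whose highest AAV-NDNF library was not replicate 3.

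Lgmn (legumain, chromosome 12, 102394084 to 102439813, minus strand) did not go with the rest of the microglia-enriched class. It was 4166, 4799.9 and 5149 after AAV-NDNF, against 4707, 4737 and 4724 after AAV-GFP. The controls were nearly identical, and the AAV-NDNF libraries lay on both sides of them. The log2 fold change was −0.01 (SE 0.11, 95% interval −0.26 to 0.23). Set against Lgmn of the same library, Ctss had a ratio of read counts of 0.777, 0.791 and 0.912 after AAV-NDNF, against 1.34, 1.03 and 1.33 after AAV-GFP, with no overlap between the groups. This ratio was chosen after the values were seen and was not tested.

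The broadly expressed proteases ranged from one of the lowest fold changes of the 10 to one near 0. Ctsd (cathepsin D, chromosome 7, 142375911 to 142388038, minus strand), the main aspartic protease of lysosomes, whose loss causes a neuronal storage disease, was 5605, 6071 and 8418 after AAV-NDNF, against 10151, 9918 and 9729.5 after AAV-GFP. The controls lay within a narrow band (SD 2.13% of the mean), and AAV-NDNF replicate 3 was much nearer to them than replicates 1 and 2. The log2 fold change was −0.59 (SE 0.15, limma adjusted p = 0.53). Without AAV-NDNF replicate 3, the library of its group nearest to the controls, it was −0.77 and passed (limma adjusted p = 0.0232). That fit called 0.0572% of all genes lower. Without AAV-NDNF replicate 1 the Ctsd value was −0.47.

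Ctsl (cathepsin L, chromosome 13, 64359337 to 64370890, minus strand), an endopeptidase, was 2156, 2431.5 and 2744 after AAV-NDNF, against 3462, 2794 and 3491 after AAV-GFP. As for Ctss, the highest AAV-NDNF library and the lowest control, AAV-GFP replicate 2, nearly met. The log2 fold change was −0.41 (SE 0.13, limma adjusted p = 0.80). Ctsb (cathepsin B, chromosome 14, 63122462 to 63145923, plus strand), which has both endopeptidase and carboxypeptidase activity, had the most reads of the 10. It was 17799, 18244 and 20446.5 after AAV-NDNF, against 23066, 20931 and 21871 after AAV-GFP, a log2 fold change of −0.22 (SE 0.11, 95% interval −0.46 to 0.01). The groups of Ctsb did not overlap, but the gap between AAV-NDNF replicate 3 and AAV-GFP replicate 2 was small.

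Ctsa (cathepsin A, chromosome 2, 164832873 to 164841032, plus strand) is a serine carboxypeptidase that also shields the lysosomal enzymes Neu1 (neuraminidase 1) and Glb1 (beta-galactosidase). It was 3258, 3489 and 3731 after AAV-NDNF, against 3634, 3726 and 3507 after AAV-GFP (log2 fold change −0.05, 95% interval −0.28 to 0.18). Both of these partners had log2 fold changes near 0 as well, −0.03 for Neu1 and 0.01 for Glb1. The ratio of Ctsd to Ctsa reads was 1.72, 1.74 and 2.26 after AAV-NDNF, against 2.79, 2.66 and 2.77 after AAV-GFP, so these broadly expressed genes separated within each library (chosen after the values were seen, not tested).

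Ctsk (cathepsin K, chromosome 3, 95499256 to 95509362, plus strand), a collagen-degrading protease, had the fewest reads of the 10, between 102 and 171 per library. It was 96.7, 117 and 140.2 after AAV-NDNF, against 101, 167 and 109 after AAV-GFP, and its log2 fold change of −0.07 had a 95% interval of −0.61 to 0.47. Ctsk is the neighbour of Ctss, ending 17424 bases before it on the same strand. The sign of the Ctsk value turned without AAV-GFP replicate 2 (0.15), the control in which it was highest and Ctss lowest.

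**Figure D2:**
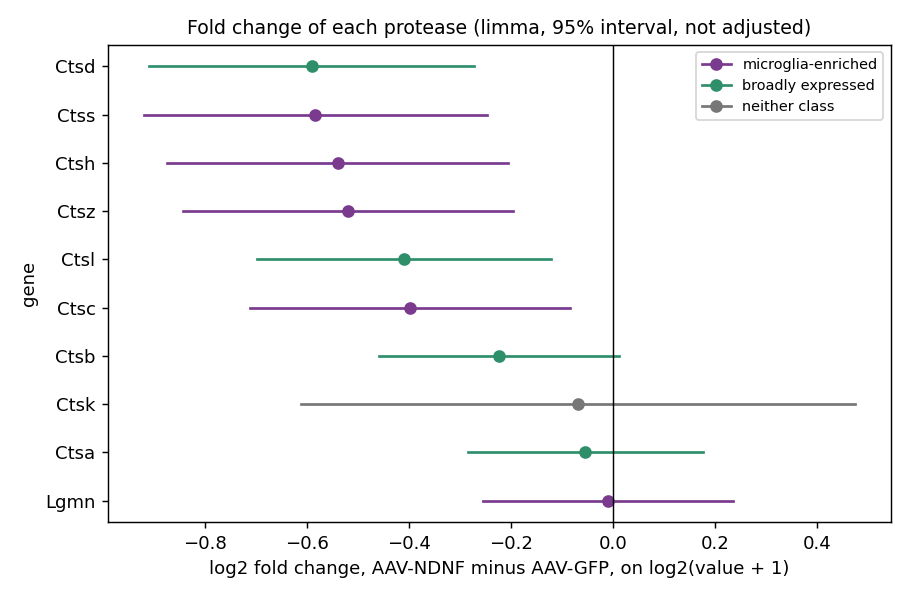
Log2 fold change of each protease, AAV-NDNF minus AAV-GFP (horizontal axis), with its unadjusted 95% interval from limma (n = 3 libraries per group) and colours for the class. The intervals of Ctsd, Ctss, Ctsh, Ctsz, Ctsl and Ctsc lie below 0, and the classes are mixed along the order, with Lgmn of the microglia-enriched class nearest to 0 at −0.01.

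By class, the median log2 fold change was −0.52 for the 5 microglia-enriched proteases (range −0.58 to −0.01) and −0.32 for the 4 broadly expressed ones (range −0.59 to −0.05), so the ranges overlapped almost fully. Groups did not overlap for 4 of the 5 and for 3 of the 4, against 5.5% of all genes. Placing Lgmn among the broadly expressed genes gave −0.53 and −0.22, and placing Ctsd among the microglia-enriched genes also gave −0.53 and −0.22. With 4 and 5 genes that share the same libraries, the difference between the classes was not tested.

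The libraries of a group were not level for these genes. AAV-NDNF replicate 3 was the highest of its group for 9 of the 10 proteases and held the least Ndnf (674 normalized reads, against 5286 and 7077 in replicates 1 and 2). As a median over the 10 genes, its level lay 0.20 below the AAV-GFP mean on the log2 scale, against 0.48 in replicate 1 and 0.40 in replicate 2. AAV-NDNF replicate 2 thus held more Ndnf than replicate 1 but lay less far below that mean. Other gene lists also differed between AAV-NDNF replicates 1 to 3, in either direction. Sums rose for neuron markers (64072, 73786 and 80759) and for lysosomal membrane and proton pump genes (77277, 81875 and 90360). They fell for astrocyte markers (113121, 103052 and 98427) and for genes of lysosomal sorting and transcription (20962, 19401 and 18261). AAV-GFP replicate 2 was the lowest control for 5 of the 10, and as for the count of 9 above, no share of all genes was computed. For Ctss, Ctsc, Ctsh and Ctsl it lay 0.15 to 0.27 below the AAV-GFP mean on the log2 scale, whereas for Ctsd and Ctsz it was level with that mean. Without that control 7 of the 10 proteases were lower at an unadjusted p under 0.05 in limma, against 3.38% of all genes, and 7 had groups that did not overlap, against 1836 of the 17480 genes. The part of NDNF level in the order of the AAV-NDNF libraries was not tested.

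Summed per kb of exon, the 10 transcripts came to 11823, 12910.5 and 15687 normalized reads per kb in AAV-NDNF libraries, against 18303, 16611 and 17669 in AAV-GFP libraries, a ratio of means of 0.769. Of that sum Lgmn took 15.1% ± 0.94 after AAV-NDNF and 11.6% ± 0.61 after AAV-GFP, and Ctsa took 5.54% ± 0.43 and 4.39% ± 0.32. The share of Ctsd was 21.0% ± 1.58 after AAV-NDNF and 24.1% ± 1.09 after AAV-GFP, while Ctss took 21.3% ± 0.99 and 24.4% ± 2.38. Ctsb took 23.3% ± 1.67 and 20.7% ± 0.21, and all these shares depend on the exon lengths used.

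**Figure D3:**
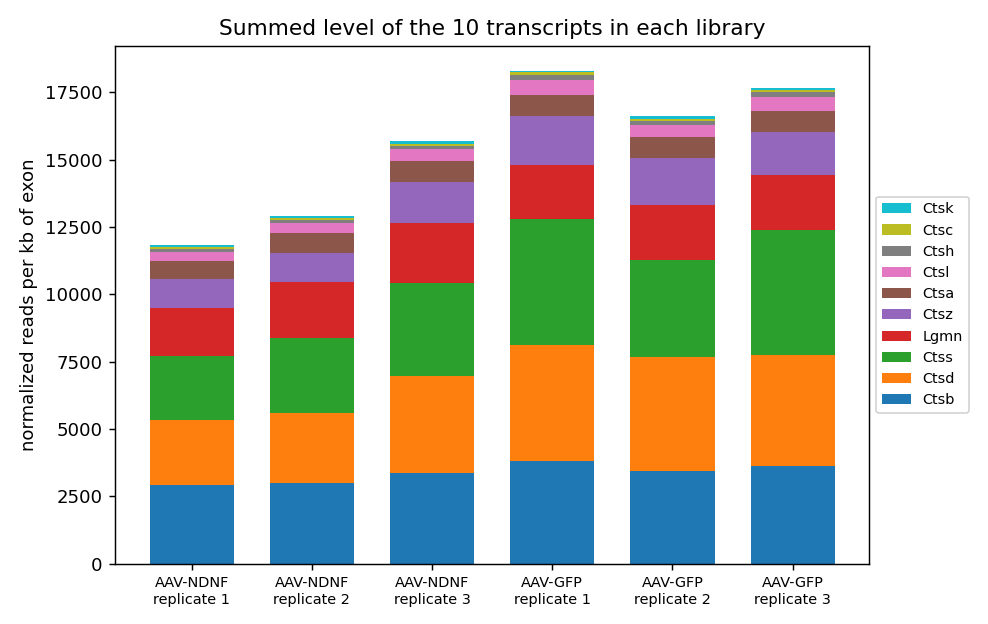
Stacked normalized reads per kb of exon of the 10 proteases (vertical axis) in each of the 3 AAV-NDNF and 3 AAV-GFP libraries. The AAV-NDNF bars reach 11823 to 15687 and the AAV-GFP bars 16611 to 18303, with most of the difference in the Ctsd and Ctss segments.

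The markers of microglia had the same sign as these proteases, although none passed limma after adjustment (smallest adjusted p = 0.364). All 12 microglia markers had log2 fold changes below 0 (median −0.28), 7 had groups that did not overlap (5.5% of all genes), 5 were lower at an unadjusted p under 0.05 (3.53% of all genes), and their summed level was 10188 to 10955 in AAV-NDNF libraries, against 13059 to 13889 in AAV-GFP libraries. Csf1r, the receptor on which microglia depend, was 3274, 3221 and 3016 after AAV-NDNF, against 4489, 4545 and 4315 after AAV-GFP. Cx3cr1, the fractalkine receptor, was 1667 ± 143 and 2187 ± 11.5, and Olfml3 795 ± 144 and 1052 ± 29.3. The groups overlapped for P2ry12 (log2 fold change −0.10), Sall1 (−0.08), Gpr34 (−0.22), Tmem119 (−0.27) and Siglech (−0.30). In tissue RNA, fewer cells of a type and less RNA per cell cannot be told apart.

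Relative to the mean log2 level of the 12 microglia markers in the same library, the proteases showed several patterns. Lgmn was 0.31 higher after AAV-NDNF than after AAV-GFP on this scale and Ctsa 0.27 higher, each with every AAV-NDNF library above every control. Ctsb was 0.10 higher, also without overlap, but by a narrow margin. Ctsd was 0.27 lower, with AAV-NDNF libraries at −0.42, −0.33 and −0.05 and controls between −0.04 and 0.04, so the gap at AAV-NDNF replicate 3 was small. Ctss (0.26 lower), Ctsh (0.22 lower), Ctsz (0.20 lower), Ctsl (0.09 lower) and Ctsc (0.08 lower) overlapped between the groups once set against the markers, as did Ctsk (0.25 higher). The marker mean itself was 0.32 lower after AAV-NDNF, without overlap between the groups. A gene level between the groups therefore rises by that amount on this scale. The separation of Lgmn and Ctsa thus follows from the fall of the markers and is no further result about these genes. The share of all genes without overlap on this scale was not computed, and no test was run on these relative levels.

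**Figure D4:**
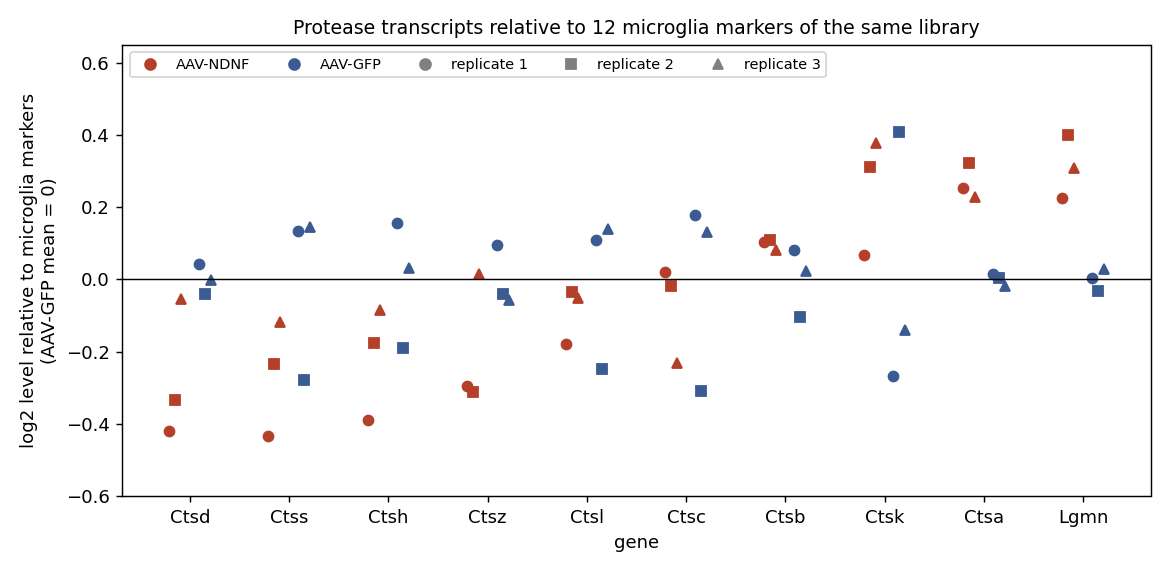
Log2 level of each protease relative to the mean of 12 microglia markers in the same library, with the AAV-GFP mean set to 0 (vertical axis), for 3 AAV-NDNF (red) and 3 AAV-GFP (blue) libraries. Lgmn and Ctsa of AAV-NDNF libraries lie above all controls, Ctsd lies below them, and Ctss, Ctsh, Ctsz, Ctsl and Ctsc overlap. The marker mean is itself 0.32 lower after AAV-NDNF, so a gene level between the groups lies higher by that amount here.

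Markers of border macrophages and blood leukocytes, which also hold these proteases, were sparse. Of 8 border macrophage markers 4 passed the filter. The summed level of all 8 was 142 to 149.7 in AAV-NDNF libraries, against 123 to 229.6 in AAV-GFP libraries. The 8 monocyte and neutrophil markers summed to 4.38 to 23.7 after AAV-NDNF, against 22.5 to 41.1 after AAV-GFP, and 1 of the 8, Ly6c2, was tested. Ly6c2, a monocyte surface protein, was 1.68, 6.76 and 0 after AAV-NDNF, against 16.1, 15.6 and 19.2 after AAV-GFP, without overlap (log2 fold change −2.70, limma adjusted p = 0.74). S100a8, Ly6g, Retnlg and Chil3, which define neutrophils or inflammatory monocytes, were each at 0 in 5 of the 6 libraries, Plac8 in 2, S100a9 in 1 and Ccr2 in 0. The 8 T cell and natural killer cell markers summed to 69.8 to 80.0 after AAV-NDNF, against 79.2 to 187 after AAV-GFP. All 7 neuron markers had log2 fold changes above 0 (median 0.23), and their sum was 64072, 73786 and 80759 in AAV-NDNF replicates 1 to 3, against 67603, 56986 and 66734 in AAV-GFP replicates 1 to 3. The groups overlapped in this sum, and AAV-GFP replicate 2 was the lowest library. The part of these cells in the protease levels was not tested. Fibroblast and meningeal markers, of interest for Ctsk, summed to 1564 to 1808 after AAV-NDNF and 1703 to 1817 after AAV-GFP.

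Other transcripts of the lysosome were set beside the 10 proteases. Of 10 tested further lysosomal and granule proteases, 1 was lower at an unadjusted p under 0.05 (3.53% of all genes) and 0 higher (1.15%), with a median log2 fold change of −0.06. The lower one was Ctse, an aspartic protease, at 11.8, 13.5 and 23.0 after AAV-NDNF, against 46.4, 29.3 and 28.8 after AAV-GFP. Tpp1, a tripeptidyl peptidase, was 2164 ± 76.5 and 2379 ± 25.3, and Scpep1, a serine carboxypeptidase, 554 ± 32.4 and 639.6 ± 64.8. Ctsw, a cathepsin of cytotoxic lymphocytes, was 14.6 ± 12.8 and 19.8 ± 6.04, and the papain-family members Ctsf and Ctso had log2 fold changes of 0.02 and 0.00.

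Of 9 tested inhibitors, 6 had log2 fold changes below 0 and 3 above, with 2 lower at an unadjusted p under 0.05 (3.53% of all genes) and 0 higher (1.15%). Cst7 (cystatin F), an inhibitor that acts on Ctsc inside immune cells, was 179, 262 and 398 after AAV-NDNF, against 548, 329 and 595 after AAV-GFP, the groups overlapping at AAV-NDNF replicate 3 and AAV-GFP replicate 2. A2m (alpha-2-macroglobulin), a secreted protease trap, was 2767, 1915 and 2146 after AAV-NDNF, against 3235, 4646 and 3135 after AAV-GFP, without overlap. Cst3 (cystatin C), the most abundant inhibitor here, was 14274 ± 3592 after AAV-NDNF and 14629.8 ± 567 after AAV-GFP. Ctss per Cst3 read was 0.282, 0.291 and 0.256 after AAV-NDNF, against 0.413, 0.346 and 0.435 after AAV-GFP, a ratio chosen after the values were seen and not tested. Cstb (stefin B) was 415 ± 73.7 and 458 ± 38.6, and Serpinb1a, which inhibits granule serine proteases, 729 ± 112 and 590 ± 119.

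Genes that sort hydrolases to the lysosome or regulate their transcription gave no call. None of the 10 tested passed an unadjusted p under 0.05 in limma (0 lower, against 3.53% of all genes), and the median log2 fold change was −0.08. Tfe3, a relative of TFEB, was 696 ± 58.0 after AAV-NDNF and 775 ± 54.2 after AAV-GFP. Igf2r, the large mannose 6-phosphate receptor, was 598 ± 141 and 650.1 ± 95.8, Scarb2 5474 ± 146 and 5918 ± 506, and Mitf 373 ± 41.1 and 402 ± 28.6. Tfeb, a factor known to bind the E-box motif, had a log2 fold change of −0.04, and its binding to the promoters shown above was not measured.

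Among 29 other hydrolases and activators, 6 were lower at an unadjusted p under 0.05 (3.53% of all genes), 0 were higher, and 9 had groups that did not overlap with AAV-NDNF below (5.5% of all genes). The lowest p belonged to Grn, the precursor of granulins, at 1972, 1818 and 2279.5 after AAV-NDNF, against 3058, 2802 and 3072 after AAV-GFP. Hexa, which takes part in ganglioside breakdown, was 1289 ± 138 after AAV-NDNF and 1752 ± 53.3 after AAV-GFP. Man2b1, an alpha-mannosidase, was 1279 ± 185 and 1655 ± 104. Psap, a precursor that cathepsin D cleaves into saposins, had a log2 fold change of −0.04.

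Of 24 tested lysosomal membrane proteins and proton pump subunits 3 were lower at an unadjusted p under 0.05 (3.53% of all genes), all of them membrane proteins, and the median was 0.05. Laptm5, a membrane protein of blood-derived and microglial lysosomes, was 1708, 1599 and 1357 after AAV-NDNF, against 2329, 2283 and 2374 after AAV-GFP. Cd68, the phagocyte glycoprotein, was 595, 700.5 and 743 against 1004, 1038 and 1015, and the tetraspanin Cd63 was 2247 ± 349 and 2740.1 ± 119. Atp6v1c1, a subunit of the proton pump, was 2933 ± 444 and 2486 ± 330.0. Lamp1, present in every lysosome, had a log2 fold change of −0.02.

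**Figure D5:**
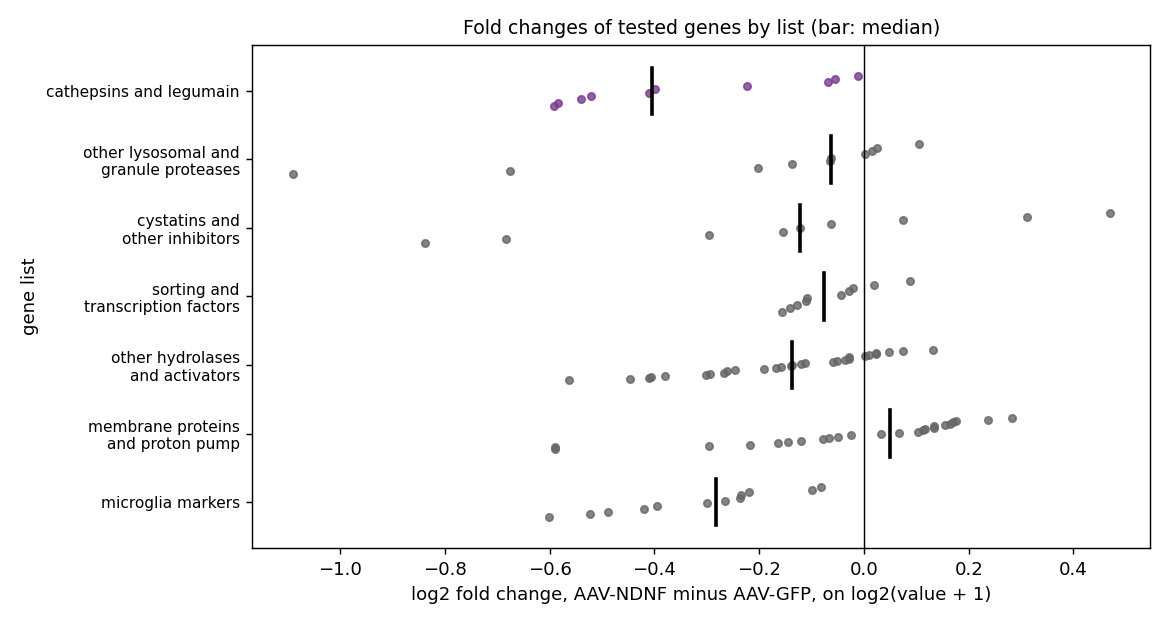
Log2 fold change of each tested gene (points; horizontal axis, AAV-NDNF minus AAV-GFP, n = 3 libraries per group) in the cathepsin and legumain set, 5 other lysosomal lists and the microglia markers, with the median of a list as a bar. The median is −0.40 for the 10 proteases, −0.28 for the microglia markers, and lies between −0.14 and 0.05 for the other lists.

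The genes with the most similar profiles over the 6 libraries were found for Ctss, Ctsd and Ctsl among 12400 tested genes other than the 10 proteases with a mean of at least 100 normalized reads, by the root mean square difference of centred log2 values. Nearest to Ctss were the chains of the complement initiator C1q, namely C1qc (0.036), C1qa (0.053) and C1qb (0.057). C1qc was 1453, 1754 and 2104 after AAV-NDNF, against 2977, 2261 and 2747 after AAV-GFP, with the same low AAV-GFP replicate 2 and high AAV-NDNF replicate 3 as Ctss. Nearest to Ctsd were the chemokine Ccl6 (0.068), the microglial gene Fcrls (0.078) and Gm10252 (0.082). Nearest to Ctsl were Sat1 (0.032), which acetylates polyamines, Shisa5 (0.070) and Ly86 (0.074), which partners a toll-like receptor homologue. Between the proteases themselves the same measure was smallest for Lgmn and Ctsa (0.049), Ctsd and Ctsz (0.056), and Ctss and Ctsh (0.064). The measure is not scaled to the range of a gene, so it is small between genes that change little, such as Lgmn and Ctsa. The nearest gene outside the set was closer to each of them, at 0.012 for Lgmn and 0.015 for Ctsa. These likenesses rest on 6 libraries and are given as descriptions.

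Some counts can be affected by overlapping genes, through reads added or reads left out. For overlaps on opposite strands this depends on the strand setting of the counting, which the sources used here do not state. Ctsa shares 495 exonic bases with Pltp and 324 with Neurl2 on the opposite strand, and Ctsb shares 774 with Fdft1. Ctsl shares 1742 with the antisense gene Gm47123, which averaged 8.84 normalized reads, and 395 with the pseudogene Gm49230 on its own strand. Ctsd shares 808 with Gm49369, also on its own strand, and Ctsz shares 10 with Nelfcd. For Ctss, Ctsc, Ctsh, Ctsk and Lgmn no shared exonic base was found in the annotation.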

How the data were processed

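Per the labels' protocols, poly(A) RNA libraries were read on an Illumina NovaSeq. Cutadapt, HISAT2, HTSeq, DESeq2 and build mm10 are named in the submitters' processing notes, while their versions, the annotation and the strand setting are not given in the sources used here. The deposited per-sample columns are a normalized signal, read counts per gene after division by 1 size factor per library. All values (100%, tolerance 0.001) were whole multiples of 1 read, so reads were recovered. DESeq2 output (log2 fold changes, the Wald score and p-values) was deposited as well, per the file headers.

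The main test was limma 3.58.1 (R 4.3.3; trend, robust, two-sided, Benjamini-Hochberg adjustment at 0.05) on log2(value + 1) for the 17480 genes that reached 10 normalized counts in 3 or more libraries. The pseudocount makes fold changes of low genes smaller. Alternatives used edgeR 4.0.16, DESeq2 1.42.0, limma-voom, other scalings, filters and pseudocounts, a replicate block, and 5 libraries of 6. Exact permutation of 3 against 3 libraries cannot give a p small enough to pass, so no test of that kind is given. Intervals and counting errors cover counting or the spread between these libraries only. The sources used here give no batch and no date.

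The members, classes, gene lists and motifs were chosen with earlier results of these data known. By rule, named genes are the members, Ndnf, up to 4 genes per list with the smallest p, and 3 nearest profiles each for Ctss, Ctsd and Ctsl. Named outside that rule, after their values were seen, were Neu1, Glb1, Ctsf, Ctso, Cst3, Tfeb, Psap, Lamp1 and Ly6c2. So were P2ry12, Sall1, Gpr34, Tmem119, Siglech, S100a9, Plac8 and Ccr2. One gene that the rule would name is not reported here. Exon lengths and positions were read from the GENCODE M21 annotation of mm10, where 98.1% of symbols matched, and promoters from RefSeq. Counts were simulated for 17480 genes of the AAV-NDNF against AAV-GFP comparison. There limma recovered 8 of 50 genes with a simulated log2 change of 0.5 and 36 of 50 with one of 1. It made 10 false calls among 147. Each simulated gene varied independently, without deviations shared by many genes of a library. In the data limma called 0 genes, so these recovery rates may not hold there.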

Additional observations from a re-analysis of the deposited data

How the results depend on the processing

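The number of genes called over the whole table was 0 in limma and changed with the tool: it was 55 with DESeq2 on recovered reads, 167 with limma-voom and quality weights, 3 with no filter on low values and 6 with the replicate block, and ran from 0 to 43 when 1 library was left out. Same-numbered libraries did not deviate together (correlations of −0.09, 0.05 and 0.08 over genes). With n = 3 libraries per group this cannot settle whether the numbers pair them. The replicate block moved no protease past the threshold. The count of proteases lower at an unadjusted p under 0.05 ran from 5 to 7 (2.19% to 5.55% of all genes) and the count without overlap from 7 to 8 (8.11% to 13.3% of all genes) when 1 library was left out. Of the 160 refitted protease values, 148 kept their sign and their side of the threshold, 8 came to pass (6 in limma-voom; Ctsd and Ctsz without AAV-NDNF replicate 3) and 4 changed sign. Ctsk accounted for 3 of these: its log2 fold change was 0.077 with limma-voom and ran from −0.21 to 0.15 with 1 library left out, being above 0 without AAV-GFP replicate 2 (0.15) or AAV-NDNF replicate 1 (0.065). Lgmn ran from −0.079 to 0.074, the highest value being that without AAV-NDNF replicate 1. Igf2r also changed sign, at 0.028 with limma-voom and from −0.27 to 0.069 with 1 library left out, highest without AAV-NDNF replicate 3. The cause of these changes was not tested. Quality weights in limma-voom ran from 0.407 (AAV-NDNF replicate 3) and 0.442 (AAV-GFP replicate 2) to 2.46 (AAV-GFP replicate 1); the cause of the low weights was not tested. Counting error averaged from 0.702% (Ctsb) to 9.15% (Ctsk) of a library's value, so depth limits Ctsk most.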
